A study of Rattus norvegicus with 11 samples.

Results

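miR-126a, miR-221 and miR-222 are microRNAs of the vessel wall, and their mature arms were followed here in rat liver. The rows were all those of the deposited microRNA table named miR-126a, miR-126b, miR-221 or miR-222, whichever the arm. This gave 6 of the 1331 rows, of which 533 carried rat microRNA names. They were both arms of miR-126a, both arms of miR-221 and both arms of miR-222; no row was named miR-126b. Of the 6, 5 passed the filter of at least 1 CPM on average (reads per 1000000 reads of a library), and miR-222-5p did not.

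Small RNA of whole liver was profiled in male rats of the outbred Sprague-Dawley stock, aged 4 weeks at entry. For 7 days, 6 Control rats ate chow and received intravenous 0.9% saline, while 5 rats were kept on total parenteral nutrition (TPN), the feeding of nutrients through a vein past the gut. The labels do not state the make-up of the infusion. Feeding by mouth and the infused fluid thus differed together between the groups. Each rat gave 1 library and is called by its group and rat number. The reads recovered from the table came to between 1404858 (Control 12) and 10189899 in Control and between 7552545 and 14788757 in TPN. In Control 5, 12 and 19, the 3 smallest libraries, rows named as predicted microRNAs held 0.517%, 2.0% and 0.560% of all reads, and in the remaining 8 libraries 0.0965% to 0.145%.

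A microRNA hairpin is cut into a duplex of a 5p and a 3p arm, and the arm that is loaded into Argonaute pairs with messenger RNAs through its seed, bases 2 to 8. miR-126 is a microRNA marker of endothelial cells and is made from an intron of Egfl7, a gene of endothelial cells. Its 3p arm is known to repress Spred1, Pik3r2 and Vcam1, and thereby to favour VEGF signalling and restrain leukocyte adhesion, while its 5p arm supports endothelial proliferation in mice. miR-221 and miR-222 are neighbours on the X chromosome that repress Kit and the cell cycle inhibitor Cdkn1b (p27). They are known for opposing vessel growth in endothelium, for promoting proliferation of vascular smooth muscle, and for rising in fibrotic liver and in liver tumours.

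The mature sequences are shown because seeds and arms decide which rows can be compared as one family and which cannot. All 6 rows matched RefSeq (GRCr8), miR-126b is added as the partner on the opposite strand, and bases 2 to 8 are in capitals, read 5′ to 3′.
rno-miR-126a-3p: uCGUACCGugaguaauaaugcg
rno-miR-126a-5p: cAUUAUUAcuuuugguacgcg
rno-miR-221-3p: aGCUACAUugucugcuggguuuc
rno-miR-222-3p: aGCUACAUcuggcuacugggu
rno-miR-221-5p: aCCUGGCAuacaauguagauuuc
rno-miR-222-5p: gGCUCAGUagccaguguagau
rno-miR-126b: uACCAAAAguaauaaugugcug
miR-221-3p and miR-222-3p share their seed, GCUACAU, with each other and with no other rat mature sequence in the RefSeq table. Their first 8 bases are identical, and 11 of 21 positions match when the sequences are aligned from the 5′ end without gaps. The seeds of the other 4 rows were each found in 1 mature sequence. On GRCr8, miR-126a-3p lies at chr3:29813219-29813240 and miR-126a-5p at chr3:29813182-29813202, both on the plus strand, the former within the span of Egfl7. The same table puts miR-126b on the minus strand at chr3:29813177-29813198, across the miR-126a-5p site.

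The hairpins of miR-222 and miR-221 stand on the plus strand of the X chromosome with 458 bases between them. They are shown with the mature arms in capitals, to place the 5p and 3p products whose levels are compared below.
Mir222, chrX:6022621-6022723: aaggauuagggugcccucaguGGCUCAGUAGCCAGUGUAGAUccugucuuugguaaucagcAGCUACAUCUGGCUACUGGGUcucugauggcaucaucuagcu
Mir221, chrX:6023182-6023290: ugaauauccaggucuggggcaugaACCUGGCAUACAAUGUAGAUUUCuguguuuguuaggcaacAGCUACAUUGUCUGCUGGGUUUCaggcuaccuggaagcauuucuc

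miR-126a-3p dominated the group. Over all libraries it gave 93.3% of the reads of the 6 rows, miR-126a-5p 5.77%, miR-221-3p 0.543%, miR-221-5p 0.224% and miR-222-3p 0.166%. By mean CPM over the 11 rats, miR-126a-3p ranked 16th of all rows at 4766 CPM, and miR-126a-5p ranked 53rd at 302.5 CPM. miR-221-3p followed at 24.6 CPM, miR-221-5p at 11.3 CPM and miR-222-3p at 8.21 CPM. The first 3 of these levels kept their order in every rat. miR-221-3p was above miR-221-5p in 10 of 11 rats, all but Control 19. miR-221-5p and miR-222-3p had no fixed order: miR-221-5p was the higher in 5 rats (Control 5, 7 and 19 and TPN 6 and 8) and the lower in the other 6. Counting reads of arms 21 to 23 bases long needs no correction for length, but ligation and amplification can favour one sequence over another, so levels of different microRNAs are compared as deposited.

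**Figure D1:**
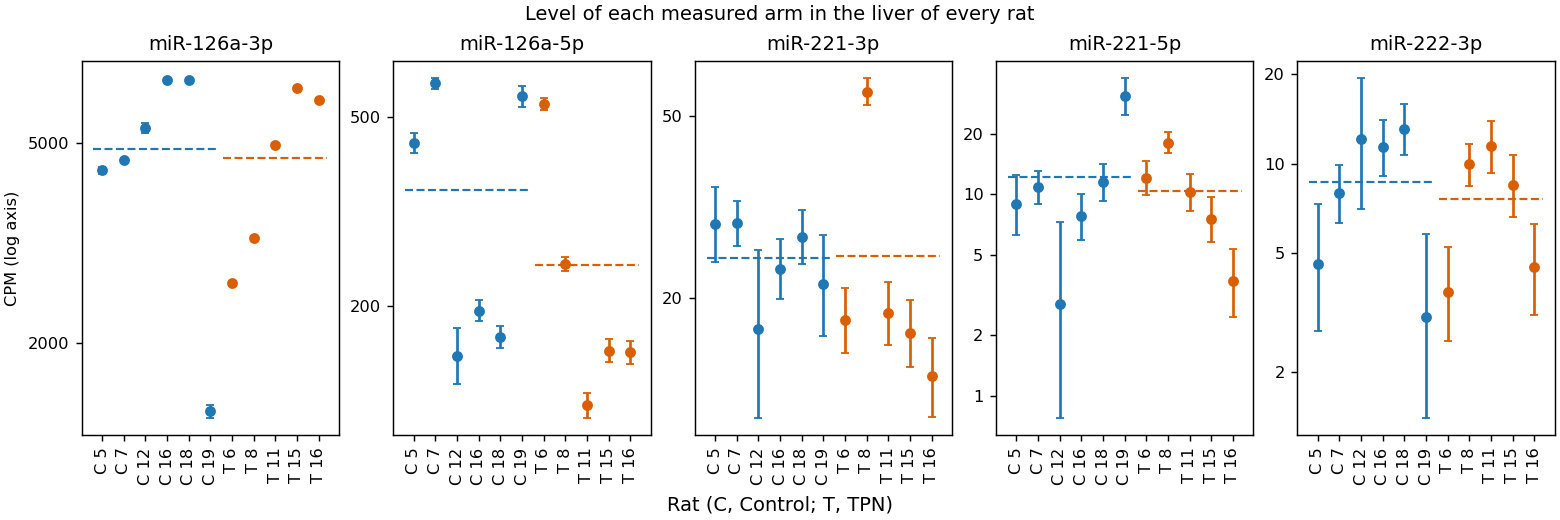
CPM of the 5 arms that passed the filter in each rat (log axis, a scale of its own per panel); points are libraries, bars the exact 95% counting interval, and dashed lines the group means. Control and TPN overlap in every panel, Control 19 is the lowest for miR-126a-3p at 1467 CPM, and TPN 8 stands alone for miR-221-3p at 56.5 CPM.

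miR-126a-3p, the arm known from endothelial cells, was at nearly the same mean level in both groups. In Control it measured 4403 CPM (rat 5), 4615 (rat 7), 5351 (rat 12), 6653 (rat 16), 6654 (rat 18) and 1467 (rat 19). In TPN it measured 2630 CPM (rat 6), 3238 (rat 8), 4941 (rat 11), 6406 (rat 15) and 6072 (rat 16). The groups overlapped over most of their range, and the lowest rat of all, Control 19, was a Control. The Control mean was 4857 CPM ± 1921 (SD, n = 6), and the TPN mean was 4657 CPM ± 1678 (SD, n = 5). In the limma-trend fit over all rows the log2 fold change was 0.004 ± 0.39 (SE; adjusted p = 1.0; 95% interval -0.84 to 0.85). The interval allows anything from 0.558 to 1.80 times the Control level. An exact permutation test of mean CPM gave p = 0.848. In these whole-liver samples, fewer cells of a type and less RNA per cell cannot be told apart.

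Counting error was small beside the spread between rats. The smallest number of reads for miR-126a-3p was 4299, in Control 19, with an exact Clopper-Pearson 95% interval from 1424 to 1512 CPM. The highest rat had 4.54 times the level of the lowest. The coefficient of variation over the 11 rats was 36.2%, against a median of 37.0% among the 168 rat-named rows that averaged 10 CPM or more. Leaving out Control 19 alone moved the log2 fold change to -0.31, and leaving out Control 5, 12 and 19 together moved it to -0.42, neither past the threshold (adjusted p = 0.443 and 0.834, limma). In those fits the median log2 fold change of all rat-named rows was -0.32 and -0.28. Relative to it, miR-126a-3p stood at 0.009 and -0.14.

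miR-126a-5p, the other arm of the same hairpin, had the most negative fitted value of the group, also without passing the test. The Control rats 5, 7, 12, 16, 18 and 19 held 440.4, 588.6, 157.3, 195.5, 171.9 and 552.2 CPM. The TPN rats 6, 8, 11, 15 and 16 held 532.0, 245.1, 123.6, 161.2 and 159.8 CPM. Both groups were thus split, with Control 5, 7 and 19 and TPN 6 at 440.4 CPM or more, TPN 8 between, and the other 6 rats at 195.5 CPM or less. Control averaged 351.0 CPM ± 199 (SD, n = 6), and TPN averaged 244.3 CPM ± 167 (SD, n = 5). Its log2 fold change was -0.52 ± 0.46 (SE; limma adjusted p = 0.483; 95% interval -1.51 to 0.48), and 4 of 5 TPN rats lay below the Control median.

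Within a library, the 3p and 5p arms of miR-126a went apart from rat to rat. The ratio of miR-126a-3p to miR-126a-5p was 34.0, 34.0 and 38.7 in Control 12, 16 and 18 and 40.0, 39.7 and 38.0 in TPN 11, 15 and 16. It was 9.998, 7.84 and 2.66 in Control 5, 7 and 19 and 4.94 and 13.2 in TPN 6 and 8. No rat lay between 13.2 and 34.0, and both ranges held Control and TPN rats (3 and 2 at the low end, 3 and 3 at the high end). As a comparison of the groups, the log2 ratio averaged 3.86 ± 1.56 (SD) over 6 Control rats and 4.38 ± 1.35 (SD) over 5 TPN rats, which did not pass an exact permutation test (p = 0.576, adjusted p = 0.933 over 4 measures). Because the rats fell into separate sets, no correlation of the arms across rats is given. The level of miR-126a-3p did not overlap between these sets. It was 1467 to 4615 CPM at the low end of the ratio and 4941 to 6654 CPM at the high end. As miR-126a-3p is the numerator of the ratio that made the sets, this separation is partly built in.

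The seed-sharing pair parted the same rats, but by a narrower margin and on fewer reads. miR-221-3p exceeded miR-222-3p in every library. Its CPM was 1.41, 2.03 and 2.08 times that of miR-222-3p in Control 12, 16 and 18, and 1.62, 1.97 and 3.0 times in TPN 11, 15 and 16. The ratio was 6.28, 3.67 and 7.0 in Control 5, 7 and 19, and 4.81 and 5.69 in TPN 6 and 8. The 5 rats with the lowest miR-126a arm ratios were thus the 5 with the highest miR-221-3p to miR-222-3p ratios, and they are also those in which miR-221-5p exceeded miR-222-3p. The nearest rats across the sets were TPN 16 at 3.0 (102 and 34 reads) and Control 7 at 3.67 (297 and 81 reads). miR-222-3p had 9 reads in Control 19, 17 in Control 12 and 18 in Control 5, so this is an order of rats rather than a clear gap. Between groups the log2 ratio of miR-221-3p to miR-222-3p was 1.65 ± 0.94 (SD) over the Control rats and 1.61 ± 0.79 (SD) over the TPN rats (exact permutation p = 0.933).

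**Figure D2:**
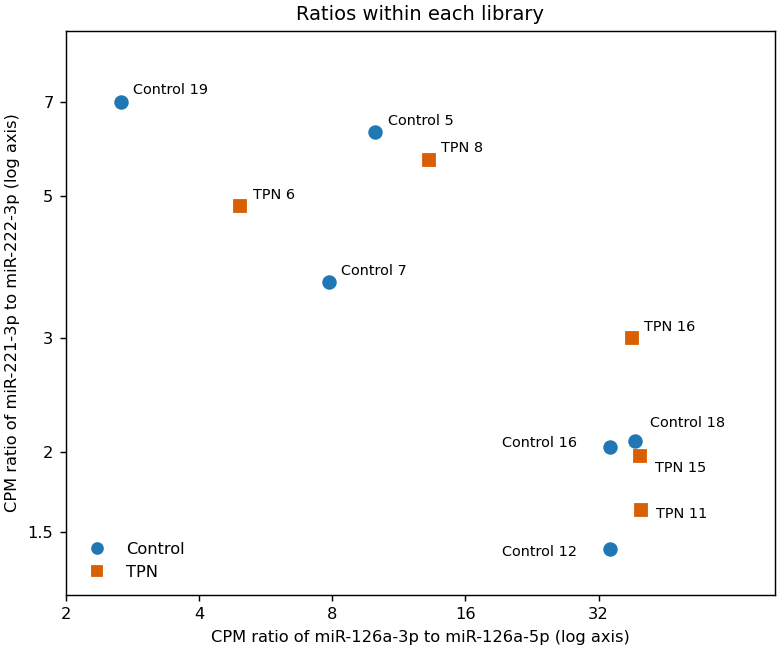
Ratio of miR-221-3p to miR-222-3p (vertical, log axis) against ratio of miR-126a-3p to miR-126a-5p (horizontal, log axis), 1 point per rat, circles for Control and squares for TPN. The 5 rats at the upper left have arm ratios of 2.66 to 13.2 and the 6 at the lower right 34.0 to 40.0, and each set holds both groups.

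The split was shared by other hairpins of the table. In 28 hairpins both arms averaged 10 CPM or more, and over the 11 rats the log2 arm ratio of miR-126a ranged over 3.91, the fourth widest. Of the other 27, 12 had these same 5 rats at one end with no overlap (44.4% of those compared), with the 3p share lower in 10 and higher in 2. miR-30b, for example, had 3p to 5p ratios of 0.0140 to 0.0809 in the 5 rats and of 0.158 to 0.499 in the other 6. miR-122, the hepatocyte microRNA, went the other way, from 0.00721 to 0.0158 in the 5 rats and from 0.000927 to 0.00339 in the other 6. The arm ratio of miR-221 did not follow the split: it ran from 0.70 in Control 19 to 6.0 in Control 12, which rests on 24 and 4 reads. miR-30b and miR-122 were picked as the 2 hairpins with the widest range, after their values were seen.

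**Figure D3:**
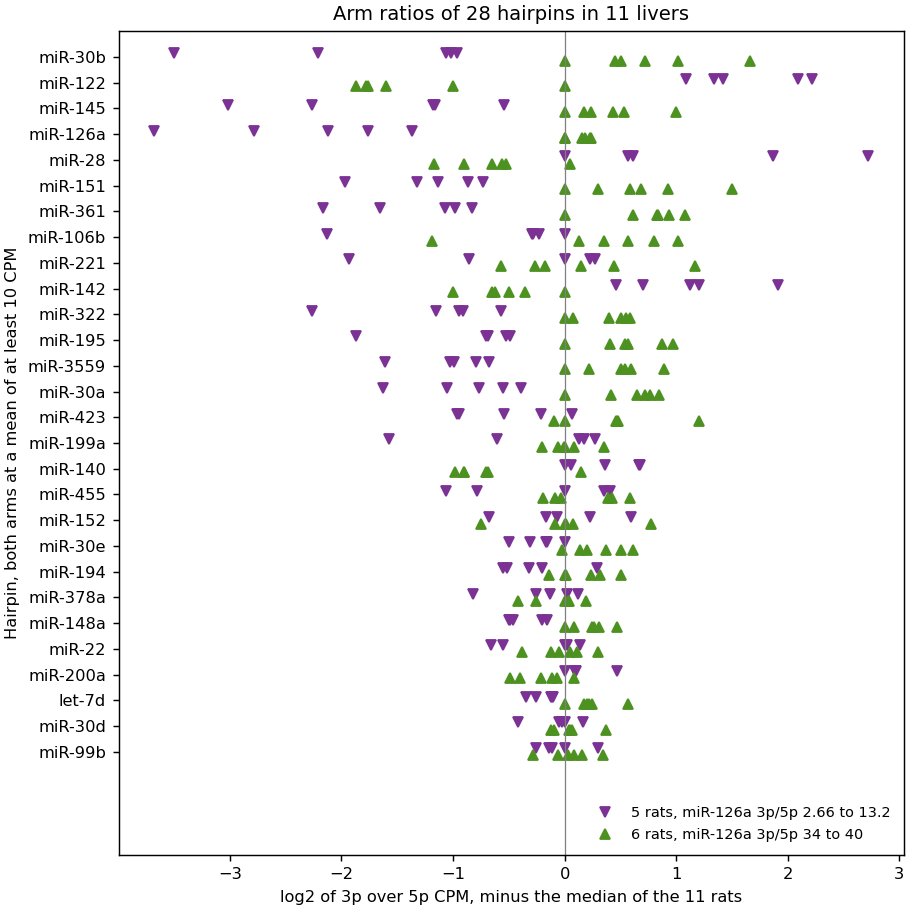
For each of 28 hairpins, the log2 ratio of 3p to 5p CPM in each rat minus the median of the 11 rats (horizontal), sorted by range; downward triangles are the 5 rats with a miR-126a arm ratio of 2.66 to 13.2, upward triangles the 6 rats at 34.0 to 40.0. The 2 kinds of triangle do not overlap for miR-126a and for 12 of the other 27 hairpins.

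Among single rows, 35 of those 168 rat-named rows (20.8%) had these 5 rats all above (23 rows) or all below (12 rows) the other 6. The 35 include both arms of miR-126a, whose ratio made the sets. The summed hepatocyte markers (miR-122, miR-802, miR-192 and miR-194) stood at 54078 to 137517 CPM in the 5 rats and at 191298 to 413499 CPM in the other 6. The summed stellate cell, fibroblast and smooth muscle markers (miR-143, miR-145, miR-199a and miR-214) stood at 21011 to 37661 CPM and at 12710 to 20504 CPM. That sum is mostly miR-143-3p, with means of 24458 CPM in Control and 18229 CPM in TPN. It tells little of miR-145, miR-199a or miR-214. The sums of the other marker lists overlapped between the sets. In the 5 rats and then the other 6, red cell markers stood at 88.4 to 802 and 31.3 to 210 CPM. Leukocyte markers stood at 161 to 217 and 147 to 328 CPM. Biliary and epithelial markers stood at 560 to 1759 and 509 to 1230 CPM, and the endothelial arms of miR-126a at 2019 to 5203 and 5065 to 6849 CPM. The part of cell make-up in the arm ratios was not tested. The labels name no batch; 4 of the 5 rats are those numbered below 10, and the fifth is Control 19. These sets were read from the data and are not groups of the study, so no test was made between them.

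miR-221-3p, which represses Kit and Cdkn1b, was lower than the Control median in 4 of 5 TPN rats and far above it in the remaining one. Control rats 5, 7, 12, 16, 18 and 19 held 29.0, 29.1, 17.1, 23.2, 27.2 and 21.5 CPM. TPN rats 6, 11, 15 and 16 held 17.9, 18.5, 16.8 and 13.5 CPM, and TPN 8 held 56.5 CPM. Apart from Control 12, whose value rests on 24 reads, each Control rat was above these 4 TPN rats, and TPN 8 was the highest of all 11. The Control mean was 24.5 CPM ± 4.80 (SD, n = 6) and the TPN mean 24.7 CPM ± 17.9 (SD, n = 5). The log2 fold change was -0.17 ± 0.34 (SE; limma adjusted p = 0.793; 95% interval -0.90 to 0.55). Without TPN 8 the value was -0.52 ± 0.24 (SE; limma unadjusted p = 0.0541, adjusted p = 0.364). In that fit the median log2 fold change of all rat-named rows was -0.31, and miR-221-3p stood at -0.20 relative to it. TPN 8 had the largest library of the series, with 836 reads for this row and an exact 95% interval from 52.8 to 60.5 CPM.

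miR-222-3p, with the same seed, did not share that high value. It measured 4.62, 7.95, 12.1, 11.4, 13.1 and 3.07 CPM in Control 5, 7, 12, 16, 18 and 19, and 3.73, 9.94, 11.4, 8.50 and 4.50 CPM in TPN 6, 8, 11, 15 and 16. The groups overlapped, and TPN 8 was near the middle. Means were 8.71 CPM ± 4.17 (SD, n = 6) and 7.62 CPM ± 3.38 (SD, n = 5), a log2 fold change of -0.13 ± 0.40 (SE; limma adjusted p = 0.891; 95% interval -1.01 to 0.74). The lowest rat, Control 19, had 9 reads, which allows 1.40 to 5.83 CPM.

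miR-221-5p, the passenger arm, had its highest level in Control 19. Control values for rats 5, 7, 12, 16, 18 and 19 were 8.99, 10.9, 2.85, 7.81, 11.5 and 30.7 CPM, and TPN values for rats 6, 8, 11, 15 and 16 were 12.1, 18.1, 10.3, 7.55 and 3.71 CPM. The groups overlapped, with means of 12.1 CPM ± 9.61 (SD, n = 6) for Control and 10.3 CPM ± 5.35 (SD, n = 5) for TPN. Its log2 fold change was -0.08 ± 0.49 (SE; limma adjusted p = 0.962; 95% interval -1.14 to 0.99), and it was 0.23 without Control 19. In that rat the 5p arm exceeded the 3p arm, at 90 reads against 63.

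miR-222-5p was close to the limit of detection, with 5 reads in all. Control 19 had 1 read, TPN 8 and 15 had 1 each and TPN 11 had 2, and the other 7 rats had none. Pooled over the reads of a group this is 0.0294 CPM in Control (exact 95% interval 0.000745 to 0.164) and 0.0836 CPM in TPN (0.0228 to 0.214). A count of 0 allows up to 2.14 CPM in Control 12 and 0.294 CPM in Control 7, so a difference was not detectable at this depth.

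TPN against Control was also fitted over the whole table, as the background for these rows. Of 535 rows tested, 0 passed an adjusted p of 0.05 with limma-trend (0%), edgeR or limma-voom, and 113 passed with DESeq2 (21.1%). Among the 280 rat-named rows, to which these arms belong, DESeq2 called 11 (3.93%). None of the 5 tested arms passed with any of the 4. At an unadjusted p under 0.05 limma-trend had 61 rows (11.4%), edgeR 168, limma-voom 14 and DESeq2 192. Among the 280 rat-named rows, in the same order, these were 30 (10.7%), 13 (4.64%), 14 (5.0%) and 22 (7.86%). The 5 arms gave 0 of 5 with each, which is not unusual at such shares. Groups did not overlap in 8 rows (1.5%), none of them an arm described here. Counted from the smallest p, the 5 arms ranked between 311 for miR-126a-5p and 530 for miR-126a-3p of 535.

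The sign of these small values depended on how libraries were scaled. Over the 280 rat-named rows the median log2 fold change was -0.26 as deposited, and it became 0.16 with TMM, 0.04 with RLE and 0.31 with upper-quartile scaling. Relative to that median, miR-126a-3p stood at 0.27, miR-126a-5p at -0.25, miR-221-3p at 0.09, miR-221-5p at 0.19 and miR-222-3p at 0.13 on the deposited scale. The arms of miR-221 and miR-222-3p were negative as deposited and positive under all 3 scalings. miR-126a-3p was positive under each of these 4 scales, up to 0.66 with upper-quartile scaling, and miR-126a-5p was negative except with upper-quartile scaling.

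**Figure D4:**
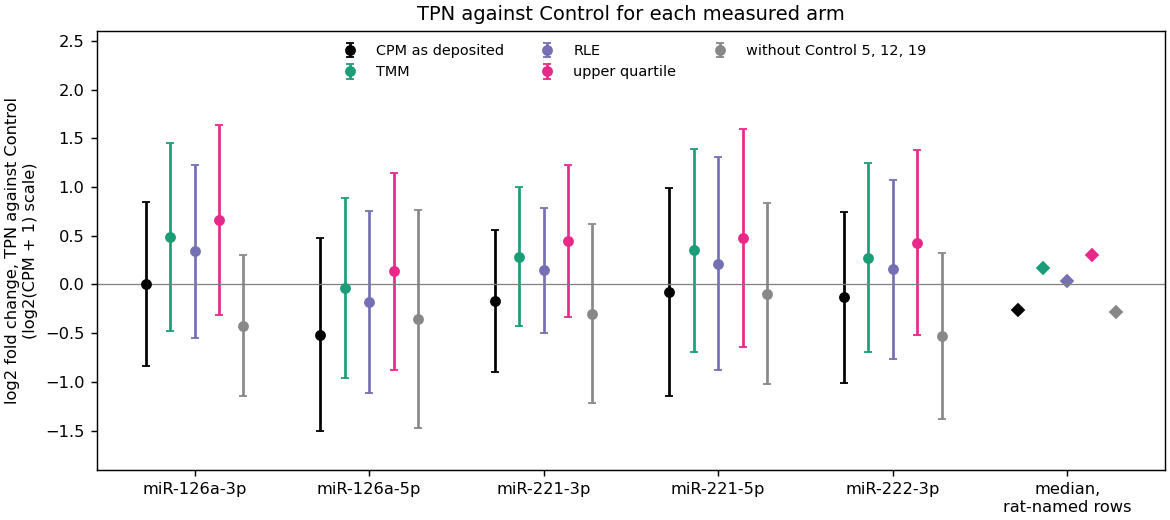
Log2 fold change of TPN against Control for 5 arms (vertical, log2(CPM + 1) scale) with the 95% interval from limma, for CPM as deposited, 3 scalings, and without Control 5, 12 and 19; diamonds give the median of the rat-named rows under the same setting. Every interval includes 0, and under the 3 scalings each arm and the median lie above their deposited values.

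Summed, the arms held about the same part of the library in both groups. With 93.3% of these reads from miR-126a-3p and 5.77% from miR-126a-5p, the sum follows miR-126a and tells little of miR-221 or miR-222. Their summed share was 0.525% ± 0.177 (SD) over 6 Control rats, from 0.208% in rat 19 to 0.689% in rat 16, and 0.494% ± 0.154 (SD) over 5 TPN rats, from 0.320% in rat 6 to 0.660% in rat 15 (exact permutation p = 0.777). The log2 ratio of miR-126a-3p to miR-221-3p, which sets the endothelial marker against a row of wider expression, was 7.51 ± 0.82 in Control and 7.70 ± 1.21 in TPN (p = 0.749, exact permutation). Each had an adjusted p of 0.933 over the 4 measures.

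Across rats, miR-221-3p and miR-222-3p had a weak correlation on the log2(CPM + 1) scale. Over the 11 rats, Pearson's r was 0.232 (permutation p = 0.514, adjusted p = 0.535) and Spearman's rho 0.136 (permutation p = 0.694). It was -0.0447 without TPN 8 and TPN 16, the 2 farthest from the median of miR-221-3p. For miR-126a-3p and miR-221-3p, r was -0.197 (permutation p = 0.535, adjusted p = 0.535) and rho -0.255 (permutation p = 0.453), and r was -0.732 without Control 19 and TPN 6 (adjusted p = 0.0999, exact permutation over 9 rats). Of the pairs given, miR-126a-3p and miR-222-3p had the highest value, an r of 0.672 (permutation p = 0.0185, adjusted p = 0.0371 over 4 pairs) and a rho of 0.673 (permutation p = 0.0276, adjusted p = 0.111). The 4 pairs of the adjustment include the 2 arms of miR-126a, whose correlation is not given. The adjusted p-values of these correlations depend on that pair too, so 0.0371 is not read as a call. Pearson's r rested on Control 19 and TPN 6, without which it was 0.147 (exact permutation p = 0.716) and rho was 0.40 (exact permutation p = 0.291), over a range of miR-126a-3p that leaving them out narrows. With group means removed, its r was 0.676 and its rho 0.70, with adjusted permutation p-values of 0.0558 and 0.0626. Without Control 5, 12 and 19 rho was 0.619 (exact permutation p = 0.115). The sets of rats seen in the miR-126a arm ratio do not overlap in miR-126a-3p, and removing group means keeps that split. The correlations of miR-126a-3p thus include the difference between those sets.

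The rows most like miR-126a-3p across the 11 rats were searched among 167 other rat-named rows that averaged 10 CPM or more, with group means removed. let-7f-5p came first with a Pearson's r of 0.973, then miR-99a-5p at 0.964 and miR-22-3p at 0.955. For miR-221-3p the leading rows were miR-200a-3p at 0.756, miR-214-3p at 0.745 and miR-151-5p at 0.707. TPN 8 held 56.5 CPM of miR-221-3p against 13.5 to 18.5 CPM in the other TPN rats. The r values for miR-221-3p can thus rest largely on that rat, and they were not computed without it. These rows were chosen for their r, which is therefore given with no p, and all rows of a library share its total. Removing group means also keeps the split of miR-126a-3p between the sets of rats seen in its arm ratio.

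Other microRNAs linked to vessel growth and endothelium, a list that includes the miR-17-92 cluster and the miR-23, miR-27 and miR-24 clusters, held 32 tested rows. As deposited 3 were positive, 29 negative and 0 passed with limma over all rows; of all 280 rat-named rows 58 were positive. With upper-quartile scaling 24 of the 32 and 214 of the 280 were positive. The list had a median log2 fold change of -0.31 against -0.26 for all rat-named rows (0.25 against 0.31 with upper-quartile scaling). The most abundant was miR-378a-3p, with 19174 CPM ± 4329 (SD) over the Control rats and 18537 CPM ± 3279 (SD) over the TPN rats. Its log2 fold change was -0.03 ± 0.22 (SE; limma adjusted p = 0.962), 0.62 with upper-quartile scaling, and 0.29 with DESeq2, which called it (adjusted p = 0.0284). The smallest p belonged to miR-23b-3p, with a Control range of 567.0 to 1278 CPM around a median of 911.2 and a TPN range of 306.4 to 838.8 around 563.5. Its log2 fold change was -0.73 ± 0.27 (SE; limma adjusted p = 0.296), and -0.07 with upper-quartile scaling.

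Markers of other cells of the liver are given beside these values, with counts of signs to be read against the 58 of 280 rat-named rows that were positive as deposited and the 214 of 280 with upper-quartile scaling. Hepatocyte markers summed to 54078 to 413499 CPM in Control and 66369 to 295987 CPM in TPN, with 1 of 8 rows positive as deposited and 7 of 8 with upper-quartile scaling (median log2 fold change -0.21 and 0.43). Mesenchymal markers summed to 18657 to 37661 CPM and 12710 to 28086 CPM, with 0 and 5 of 7 positive under the same scales (median -0.43 and 0.22). Most of that sum was miR-143-3p. Leukocyte markers summed to 161 to 328 CPM and 147 to 202 CPM, with 1 and 6 of 7 tested rows positive, and biliary and epithelial markers to 509 to 1230 CPM and 584 to 1759 CPM, with 5 and 6 of 7 tested rows positive. The red cell markers summed to 133 to 802 CPM in Control and 31.3 to 261 CPM in TPN, with 0 of 3 tested rows positive under either scale, and the part of blood left in the liver in the values above was not tested. miR-451-5p was both the most abundant of these and the one with the smallest p, at -2.35 ± 0.63 (SE; limma adjusted p = 0.296) and -1.71 with upper-quartile scaling. All 3 red cell rows had an unadjusted limma p under 0.05 as deposited, against 11.4% of all rows, and 1 of 3 did with upper-quartile scaling. No marker row of the table was at 0 in all rats, but miR-126b, of the endothelial list, had no row. With limma-trend, edgeR or limma-voom, 0 marker rows passed over all rows. DESeq2 called miR-451-5p (log2 fold change -1.76, adjusted p = 0.0415) and, in the epithelial list, miR-200a-5p (0.85, adjusted p = 0.04999).

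The leading row of each other list is given in the same fit. On the log2 scale, the most abundant hepatocyte row, miR-122-5p, had a fold change of -0.03, and the value of the one with the smallest p, miR-194-5p, was -0.51. For the mesenchymal list these were miR-143-3p at -0.43 and miR-143-5p at -0.62, for leukocytes miR-142-3p at -0.29 and miR-150-5p at -0.56, and for the epithelial list miR-200b-3p at 0.22 and miR-200c-3p at -0.83. The smallest adjusted p among these 8 rows was 0.296 (limma). With upper-quartile scaling miR-122-5p, miR-194-5p, miR-143-3p, miR-142-3p and miR-150-5p turned positive, at 0.62, 0.14, 0.22, 0.36 and 0.06, while miR-143-5p, miR-200b-3p and miR-200c-3p kept their signs, at -0.04, 0.87 and -0.23.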

How the data were processed

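Per the labels' protocols, small RNA from 11 rat livers was read on an Illumina HiSeq. The deposited values are CPM in 1 table, with 1 column per rat; each column sums to 1000000. DESeq2 is named, with no role or version, per the submitters' processing notes; the sources used here do not give the aligner, database, build or how reads of similar sequences were divided. Dividing by the smallest value of each column gave whole reads (100% of non-zero values, tolerance 0.001).

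The fit was limma-trend without covariates on log2(CPM + 1), for the 535 rows averaging 1 CPM or more, Benjamini-Hochberg over all rows (R 4.3.3, limma 3.58.1). DESeq2 1.42.0, limma-voom and the quasi-likelihood test of edgeR 4.0.16 on recovered reads, 3 scalings, filters, pseudocounts and leaving out libraries were alternatives. Ratios and shares used 2-sided exact permutation tests over 462 regroupings, smallest p 0.00216; correlations used 100000 resamples. Intervals are exact Clopper-Pearson at 95%, and a count of 0 allows 3 reads; both cover counting error only. Fold changes on this scale understate those of rare rows.

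Named rows were all arms under the rule, the 3 rows most like miR-126a-3p and miR-221-3p, and of each list the most abundant and the one with the smallest p. Members and lists were chosen with earlier results of these data known. No library pair agreed within sampling noise (smallest chi-square per degree of freedom 180.3, Control 16 and 18). Rats were separate animals by number; the labels give no other replicate detail. Sequences are from RefSeq (GRCr8). Figures: matplotlib 3.10.9.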

Additional observations from a re-analysis of the deposited data

Results flagged for a closer look

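In 20 sets of values (5 arms, 4 ratios or shares and the miR-221 arm ratio, in each group), a rat stood apart from its group in 2, where chance gives about 1 in 20. miR-221-3p in TPN 8, at 56.5 CPM, lay above the other TPN rats (13.5 to 18.5 CPM) by 0.883 of the range of the group, over the critical value of 0.71 for 5 samples. miR-221-5p in Control 19, at 30.7 CPM, lay above the other Control rats (2.85 to 11.5 CPM) by 0.690 of the range, over the critical value of 0.625 for 6 samples. Both gaps were taken on CPM and not on the log2(CPM + 1) scale of the fits, where a high value stands less far apart. TPN 8 had the most reads of the series and Control 19 the second fewest.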

How the results depend on the processing

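None of the 5 tested arms passed an adjusted p of 0.05 under any alternative, and over all rows the count of 0 became 113 only with DESeq2. No call could therefore be lost, and the alternatives show how far each value moves. The log2 fold change of miR-126a-3p ran from -0.31 to 0.19 when each rat was left out, and was -0.42 without Control 5, 12 and 19. miR-126a-5p ran from -0.85 to -0.32 and was 0.13 with upper-quartile scaling. With TMM, RLE and upper-quartile scaling, edgeR, limma-voom and DESeq2, miR-221-3p was 0.29, 0.14, 0.45, 0.41, 0.27 and 0.26, and miR-222-3p was 0.27, 0.16, 0.43, 0.22, 0.29 and 0.11. In the same order miR-221-5p was 0.35, 0.22, 0.48, 0.26 and 0.28, and -0.0029 with DESeq2. Leaving out each rat gave -0.52 to -0.02 for miR-221-3p, -0.37 to 0.23 for miR-221-5p, -0.36 to 0.0588 for miR-222-3p and -0.0100 to 0.0841 CPM for the difference in miR-222-5p. For the log2 ratios it gave 0.03 to 1.04 for miR-126a-3p to miR-126a-5p, -0.27 to 0.19 for miR-221-3p to miR-222-3p, -0.0914 to 0.66 for miR-126a-3p to miR-221-3p, and for the summed share -0.0945 to 0.0128 percentage points. Without Control 5, 12 and 19 these 3 log2 ratios were -0.0627, 0.29 and -0.10, and by medians that of miR-221-3p to miR-222-3p was 0.12. The correlation of miR-126a-3p with miR-222-3p was 0.676 with group means removed, 0.478 without Control 5, 12 and 19 and 0.147 without Control 19 and TPN 6; that of miR-221-3p with miR-222-3p was -0.0447 without TPN 8 and 16. The cause of these moves was not tested.

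Rat number below 10, used as a term after seeing the data, kept each arm uncalled. Rats below 10 were 2 Control and 2 TPN, and rats of 10 or more were 4 Control and 3 TPN, too few to compare the sets. Within them, in that order, miR-126a-3p was -0.63 and 0.42 and miR-126a-5p -0.49 and -0.66. miR-221-3p was 0.13 and -0.42, miR-221-5p 0.54 and -0.49, and miR-222-3p 0.02 and -0.18. No paired analysis was possible because the groups share only the rat number 16. Depth limits miR-222-5p, and miR-221-5p and miR-222-3p in the smallest libraries.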
